A study of Mus musculus with 3 samples.

Results

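The genes described here encode the enzymes that carry glucose to pyruvate and lactate: Hk2, Gpi1, Pfkl, Aldoa, Tpi1, Pgk1, Pgam1, Eno1, Pkm and Ldha. Their probe rows were taken by the gene symbol that the platform annotation gives, a rule that uses no measured value. The genes themselves were chosen with earlier results of these data known. Of the 10 genes, 7 had at least 1 probe row, and these gave 10 of the 38976 probe rows on each array. Gpi1, Eno1 and Ldha were not analysed here, because no probe row carried their symbol. Hk2, Pfkl, Aldoa and Pgam1 rested on 1 probe each, and Tpi1, Pgk1 and Pkm on 2 each.

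RNA of mouse mammary tumors was compared on 3 microarrays of 2 channels. MMTV-PyMT mice carry the polyomavirus middle T oncogene under a mammary tumor virus promoter and develop carcinomas of the mammary gland. Primary cultures of such carcinomas, which carried no fluorescent marker, received a PMIG retrovirus with an IRES-GFP cassette, either with full length GATA-3 or as the empty vector, and were placed in cleared mammary fat pads of wild-type hosts. Tumors were taken after 6 weeks of growth, so both groups shared the oncogene, the vector backbone and the host. The hosts' stroma, vessels, fat and immune cells were intact and could contribute RNA, and fewer cells of a type cannot be told apart from less RNA per cell. Strain, host age and the share of infected cells are not stated. On every array the GATA-3 tumor was labelled with Cy5 and the empty-vector tumor with Cy3, so an effect of the dye on a probe cannot be told apart from a difference between the tumors.

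Glycolysis splits a 6-carbon sugar into pyruvate in the cytosol, with an investment phase that spends ATP and a payoff phase that returns it. Hexokinase traps glucose in the cell, phosphofructokinase commits it to the pathway, and pyruvate kinase closes it. Tumors are known for a high rate of glycolysis with release of lactate, and many of its enzymes are known targets of hypoxia-inducible factor, HIF-1. Most steps can be run by several isozymes with their own tissue preference, so a probe annotated to 1 isozyme does not report the capacity of a step.

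All values are log2 ratios of the GATA-3 tumor over the empty-vector tumor, with each array's median set to 0. A positive value means higher in the GATA-3 tumor. This direction is likely, from the channels in the labels, but unproven, and with the opposite sign every higher and lower below would swap. Gata3 itself had a ratio of 0.80 ± 0.06 (SD, n = 3; adjusted p = 0.00307), which was part of the basis for this reading of the sign. Of all rows 31.7% had a positive mean with an adjusted p under 0.05 (limma), so this value alone does not settle the sign. Only ratios were available, so neither the abundance of a transcript nor the expression of the tissue's defining markers could be checked as a level. Among 9 epithelial markers, E-cadherin (Cdh1) was higher at 0.80 ± 0.05, 5 were lower and 3 did not pass, with a list median of -0.71. The lower markers with the smallest p were Krt18 at -1.24 ± 0.20, Krt19 at -1.23 ± 0.37 and Cldn4 at -0.71 ± 0.16 (all SD, n = 3). Of all rows 24.1% were lower by the same threshold. Array numbers from 1 to 3 follow the accessions and are names only. The titles of arrays 2 and 3 begin alike and that of array 1 differently. The deposited columns had SDs of 0.562, 0.722 and 0.550 in that order, and nothing states that the arrays held separate animals, so p-values cover the spread among the 3 arrays, which can be purely technical.

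Promoter sequence is shown for 4 members, the pair that was higher in the GATA-3 tumors (Hk2 and Pgk1) and 2 that were lower (Aldoa and Tpi1), because HIF-1 is known to act on glycolytic genes through short elements with the core letters ACGTG or GCGTG. Capitals mark these letters on either strand. Each window runs from 250 bases before to 50 bases after a RefSeq start on GRCm38.p6, 5′ to 3′ in the direction of the gene. For Aldoa, which has 3 such windows, the middle one is shown.
Hk2: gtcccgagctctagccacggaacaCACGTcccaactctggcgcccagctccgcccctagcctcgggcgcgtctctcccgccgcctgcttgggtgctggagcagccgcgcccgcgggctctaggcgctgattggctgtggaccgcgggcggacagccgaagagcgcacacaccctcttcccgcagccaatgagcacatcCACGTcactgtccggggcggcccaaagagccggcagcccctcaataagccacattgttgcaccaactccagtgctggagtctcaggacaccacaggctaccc
Pgk1: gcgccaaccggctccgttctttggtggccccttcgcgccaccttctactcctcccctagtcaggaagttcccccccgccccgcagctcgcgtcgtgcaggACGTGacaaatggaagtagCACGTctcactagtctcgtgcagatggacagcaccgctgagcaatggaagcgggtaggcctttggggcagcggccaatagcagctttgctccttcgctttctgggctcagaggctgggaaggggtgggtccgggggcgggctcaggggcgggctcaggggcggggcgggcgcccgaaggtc
Aldoa: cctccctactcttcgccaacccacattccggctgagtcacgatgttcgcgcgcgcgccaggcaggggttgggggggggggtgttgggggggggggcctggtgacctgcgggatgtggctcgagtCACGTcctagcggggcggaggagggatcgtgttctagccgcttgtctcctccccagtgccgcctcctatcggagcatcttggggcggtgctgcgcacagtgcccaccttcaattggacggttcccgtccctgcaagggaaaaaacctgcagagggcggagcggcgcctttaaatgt
Tpi1: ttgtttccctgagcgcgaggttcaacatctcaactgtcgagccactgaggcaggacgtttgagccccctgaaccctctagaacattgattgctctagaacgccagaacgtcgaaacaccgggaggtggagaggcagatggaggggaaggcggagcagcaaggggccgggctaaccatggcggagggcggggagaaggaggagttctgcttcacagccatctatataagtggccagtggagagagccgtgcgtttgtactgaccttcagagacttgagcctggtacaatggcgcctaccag
These windows lie at chr6:82774405-82774704 on the minus strand for Hk2, chrX:106186850-106187149 on the plus strand for Pgk1, chr7:126799205-126799504 on the minus strand for Aldoa and chr6:124814109-124814408 on the minus strand for Tpi1. The Hk2 and Pgk1 windows held ACGTG 2 times each, the Aldoa window 1 time, and the Tpi1 window held neither motif. Among the lower members not shown, a Pkm window held ACGTG 2 times. The Pgam1 window held ACGTG 1 time and GCGTG 2 times, and the Pfkl window GCGTG 1 time. All 10 genes matched the RefSeq promoter table, with 16 windows, of which 12 held at least 1 of the motifs, against 43.8% of all 32851 windows. The 16 include windows of the unmeasured Gpi1, Eno1 and Ldha. Some windows of Eno1 and of Aldoa overlap, so the same letters can count more than once. ACGTG lay in a window of 5 of the 7 measured members (Hk2, Pgk1, Aldoa, Pgam1 and Pkm), against 21.8% of all 27025 symbols in the table, and these 5 include both members that were higher and 3 that were lower. GCGTG lay in a window of 2 of the 7 (Pfkl and Pgam1), against 35.2% of all symbols. The palindrome CACGTG, which would hold ACGTG on both strands, was in none of the windows of these 7 genes. A match is a description of these letters only.

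In the GATA-3 tumors 5 of the 7 measured glycolytic enzymes were lower and 2 were higher, and all 7 passed the threshold of the test across all rows (limma, Benjamini-Hochberg adjusted p under 0.05). The members that were lower were Aldoa, Tpi1, Pfkl, Pgam1 and Pkm, from 2.47-fold to 1.54-fold, and those that were higher were Hk2 at 1.61-fold and Pgk1 at 1.38-fold. The threshold was passed by 55.8% of all 31059 rows of the fit (24.1% negative and 31.7% positive) and by 57.9% of the 15056 named genes. A call is therefore common on these arrays and does not set a gene apart. The median of the 7 mean log2 ratios was -0.64, beside 0.02 over all rows. All 7 had the same sign on every array, as did 76.4% of all rows. With a plain one-sample test per gene, which borrows no variance across rows, none of the 7 passed (adjusted p from 0.0553 to 0.164; 4 at an unadjusted p under 0.05), and 0.0129% of all rows did.

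**Figure D1:**
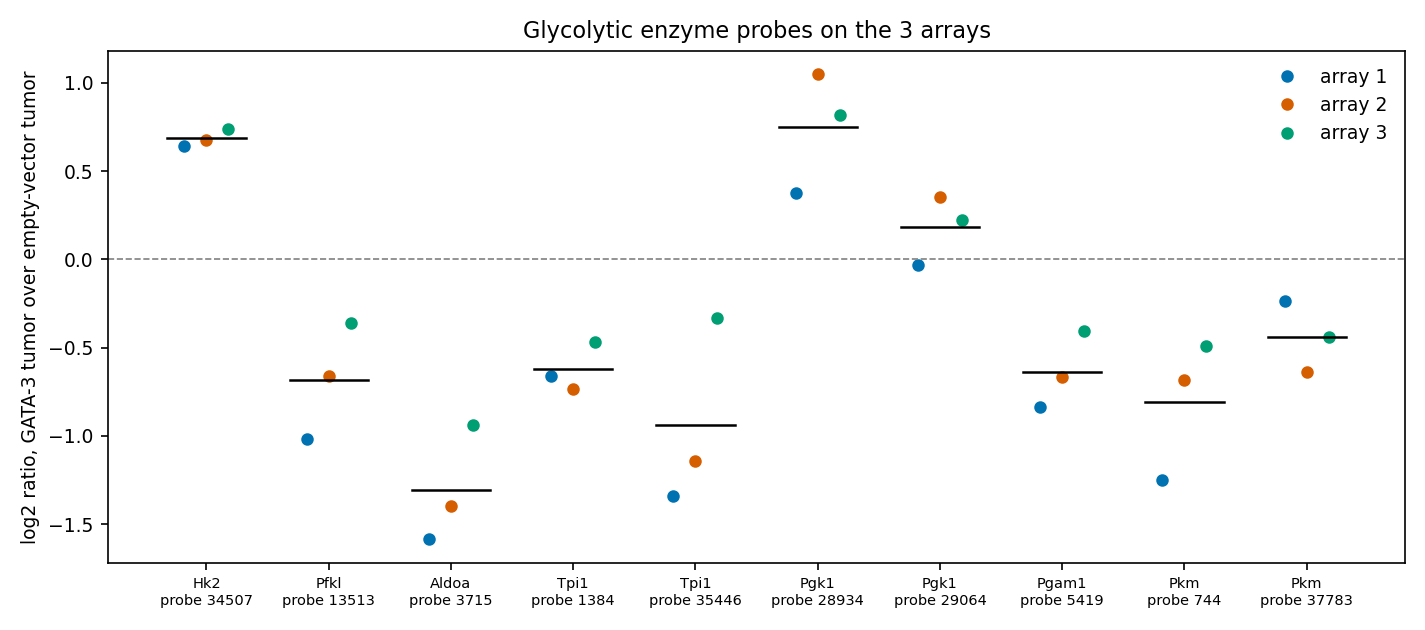
Log2 ratio of the GATA-3 tumor over the empty-vector tumor (vertical axis) for each of the 10 probes of the 7 measured glycolytic enzymes (horizontal axis), with a point for each array and a black bar at the mean of the 3 arrays. The 7 probes of Pfkl, Aldoa, Tpi1, Pgam1 and Pkm lie below 0 on every array, the Hk2 probe and Pgk1 probe 28934 above it, and Pgk1 probe 29064 on both sides.

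Among the measured members of the investment phase, Hk2 was higher and Pfkl, Aldoa and Tpi1 were lower. Hexokinase 2 (Hk2) is the inducible hexokinase of muscle, fat and many tumors. Its log2 ratio was 0.64 on array 1, 0.68 on array 2 and 0.74 on array 3, the narrowest spread of the 7 members. The mean was 0.69 ± 0.05 (SD, n = 3; adjusted p = 0.00322), and 83.6% of all rows had a lower or equal mean.

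Pfkl, the liver-type subunit of phosphofructokinase, gave -1.02, -0.66 and -0.36 on arrays 1, 2 and 3. All 3 values were negative, furthest from 0 on array 1 and closest on array 3. The mean was -0.68 ± 0.33 (SD, n = 3; adjusted p = 0.0131), a 1.60-fold lower value.

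Aldolase A (Aldoa), which cleaves fructose 1,6-bisphosphate and is the main aldolase of muscle and of most proliferating cells, had the most negative ratio of the members. Its values were -1.59, -1.39 and -0.94 on arrays 1, 2 and 3, and the mean was -1.31 ± 0.33 (SD, n = 3; adjusted p = 0.00310). It was the one member with a mean beyond 1 in size, a size that 7.37% of all rows reached together with a call, and it stood at percentile 0.663 of all row means. On the single arrays it stood at percentiles 0.345, 1.61 and 1.62, so it was near the lower end of each.

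Triosephosphate isomerase (Tpi1), which interconverts the products of aldolase, was read by 2 probes that were both negative on every array. Probe 1384 gave -0.66, -0.73 and -0.47, with a mean of -0.62 ± 0.14. Probe 35446 gave -1.34, -1.14 and -0.33, with a mean of -0.94 ± 0.53 (both SD, n = 3). The probes were far apart on arrays 1 and 2 and closest on array 3. Their average was -0.78 ± 0.33, 1.72-fold lower (adjusted p = 0.00889).

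In the payoff phase the ATP-forming kinases had opposite signs. Phosphoglycerate kinase 1 (Pgk1) makes the first ATP of this phase, and its 2 probes differed in size. Probe 28934 gave 0.38, 1.05 and 0.82 on arrays 1, 2 and 3, and passed the threshold in the fit of single probes (mean 0.75 ± 0.34, adjusted p = 0.0105). Probe 29064 gave -0.03, 0.35 and 0.22 and did not pass (mean 0.18 ± 0.20, adjusted p = 0.200; both SD, n = 3). It was the one member probe of 10 without a single sign over the arrays, and 76.7% of all probe rows had one. Their average was 0.46 ± 0.27 (SD, n = 3; adjusted p = 0.0276). This call was lost without array 2 (0.35, adjusted p = 0.110) and without array 3 (0.44, adjusted p = 0.139), while arrays 2 and 3 alone, whose titles begin alike, gave 0.61 with an adjusted p of 0.00409. Of all rows 36.7%, 27.4% and 63.6% passed in these 3 fits. Pgk1 was the one member that lost its call in a fit with an array left out.

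Phosphoglycerate mutase 1 (Pgam1), the mutase of non-muscle tissue, moves the phosphate group for enolase. It gave -0.83, -0.67 and -0.41 on arrays 1, 2 and 3, all below 0. The mean was -0.64 ± 0.21 (SD, n = 3; adjusted p = 0.00753).

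Pyruvate kinase (Pkm) has 2 known splice forms, M1 and M2, and the M2 form is the one known from proliferating cells. Where its 2 probes lie in the transcript is not known, so the values do not separate the forms. Probe 744 gave -1.25, -0.68 and -0.49, and probe 37783 gave -0.23, -0.64 and -0.44 on arrays 1, 2 and 3. The probes were close on arrays 2 and 3 and apart on array 1. Their means were -0.81 ± 0.39 and -0.44 ± 0.20, and the average was -0.62 ± 0.14 (all SD, n = 3; adjusted p = 0.00518), a 1.54-fold lower value.

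Fitted as single probes, 9 of the 10 member probes passed the threshold, 7 negative and 2 positive, where 57.3% of all 38975 probe rows did (25.9% negative and 31.4% positive). In each of the 3 members with 2 probes, both probe means had 1 sign. All 5 members with a negative mean had their lowest value on array 1 and the value closest to 0 on array 3. The share of all rows with this order was not computed. Not every probe of these members had it. Tpi1 probe 1384 and Pkm probe 37783 were lowest on array 2, and Pkm probe 37783 was closest to 0 on array 1. The median over the 7 members was -0.83 on array 1, -0.66 on array 2 and -0.40 on array 3. The ranking within each array moved in the same way: Pfkl stood at percentile 2.71 of array 1 and at 18.6 of array 3, and Tpi1 at 2.93 and 16.2. Hk2 did not share this order in its percentiles, which were 85.6, 79.0 and 86.1. Its log2 ratios did rise from array 1 to array 3 (0.64, 0.68 and 0.74). Pgk1 was lowest on array 1 and highest on array 2 (0.17, 0.70 and 0.52).

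Other isozymes can run the same steps. Of 21 on the list 17 were measured, and 76.5% of these passed the threshold, beside 55.8% of all rows. Among the 17, 5 were higher, 8 were lower and 4 did not pass, with a median of 0.21. The 2 most negative were isozymes of skeletal muscle. Eno3, beta-enolase, gave -1.62, -1.75 and -1.19 on arrays 1, 2 and 3, with a mean of -1.52 ± 0.30 (SD, n = 3; 2.86-fold lower, adjusted p = 0.00307). Pgam2, the muscle mutase, gave -1.30, -1.70 and -1.10, with a mean of -1.36 ± 0.30 (2.58-fold lower, adjusted p = 0.00307). Both were below -1 on every array. Eno2, the enolase known from neurons, was lower to a smaller degree, at -0.41 ± 0.05 (SD, n = 3; adjusted p = 0.0110), and lost the call without array 2 (adjusted p = 0.0585) and without array 3 (0.0767).

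Of 11 measured skeletal muscle markers, 2 were higher, 4 were lower and 5 did not pass, with a median of -0.21. The calcium-binding protein gene Casq1 was at -1.51 ± 0.48, muscle creatine kinase (Ckm) at -0.47 ± 0.17 and troponin I2 (Tnni2) at -0.37 ± 0.07, while parvalbumin (Pvalb) was at 0.65 ± 0.16 (all SD, n = 3). Tnni2 lost the call without array 2 (adjusted p = 0.0572), and it and Ckm without array 3 (0.102 and 0.0603). The part of these markers in the ratios of Eno3, Pgam2 and Aldoa was not tested. Markers of the other cell types that the outgrowths could hold were counted too, and their part in the members' ratios was not tested either. Of all rows 31.7% were called higher and 24.1% lower, 55.8% in all. The shares called were 54.5% for muscle, 55.6% for adipocyte and 57.1% for myeloid markers, near that of all rows. They were 85.7% for endothelial, 80% for lymphocyte and for red cell, and 75% for fibroblast and matrix markers. Adipocyte markers counted 4 higher and 1 lower of 9 (median 0.14), endothelial markers 4 and 2 of 7 (0.26), myeloid markers 2 and 2 of 7 (-0.11), lymphocyte markers 3 and 1 of 5 (0.63) and fibroblast and matrix markers 0 and 6 of 8 (-0.36). Of 5 red cell markers 4 were higher and 0 lower, the latter also at an unadjusted p under 0.05 (limma), with a median of 0.30. Of these 4, Hbb-b2 and Car1 lost the call with the values as deposited (adjusted p = 0.0648 and 0.0935) and with any single array left out, and Epb42 lost it without array 3 (0.0590).

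Glyceraldehyde phosphate dehydrogenase (Gapdh), which acts between Tpi1 and Pgk1 and is often used as a reference gene, was read by 30 probes. Their means ran from -1.35 to 0.65 with a median of -0.82, and 26 were negative and 4 positive. In the fit of single probes 22 were lower, 2 were higher and 6 did not pass. The average of all 30 was -0.80, -0.84 and -0.41 on arrays 1, 2 and 3, with a mean of -0.69 ± 0.24 (SD, n = 3; adjusted p = 0.00702), again closest to 0 on array 3. The sperm isozyme Gapdhs was at -0.28 ± 0.11 (adjusted p = 0.0433) and lost the call without array 2 (0.196) and without array 3 (0.228).

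At the hexokinase step Hkdc1 was higher at 0.28 ± 0.05, Adpgk, which uses ADP in place of ATP, was lower at -0.35 ± 0.17, and Hk1, the widely expressed hexokinase, gave 0.35, -0.10 and 0.38 with an adjusted p of 0.201. At the phosphofructokinase step the muscle-type subunit gene Pfkm was higher at 0.43 ± 0.22 (adjusted p = 0.0252) and the platelet-type Pfkp did not pass (0.21 ± 0.19, adjusted p = 0.142), against -0.68 for Pfkl. With the median of its 4 probes in place of their mean, Pfkp passed at 0.45 (adjusted p = 0.00826). The difference between isozymes of a step was not tested. The testis form Pgk2 was higher at 0.44 ± 0.21, close to the 0.46 of Pgk1, and Bpgm, which makes the 2,3-bisphosphoglycerate of red cells, was at 0.43 ± 0.21. Eno4, a sperm enolase, was at 0.35 ± 0.15 and Pklr, the pyruvate kinase of liver and red cells, at -0.37 ± 0.17 (all SD, n = 3). With array 3 left out, Hkdc1, Adpgk, Pfkm, Pgk2, Bpgm, Eno4 and Pklr lost their calls (adjusted p from 0.136 to 0.164). All of these but Eno4 also did so without array 2 (0.0569 to 0.159), and Adpgk without array 1 as well (0.0535). With the values as deposited, Hkdc1 (0.0581) and Eno4 (0.0511) did not pass.

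For lactate dehydrogenase, which turns pyruvate into lactate, the heart-type subunit gene Ldhb was lower at -0.60 ± 0.13 (SD, n = 3; 1.52-fold, adjusted p = 0.00541). It gave -0.50, -0.75 and -0.55 on arrays 1, 2 and 3. The testis subunit Ldhc (0.25 ± 0.08, adjusted p = 0.0512) and the D-lactate enzyme Ldhd (0.21 ± 0.15, adjusted p = 0.111) did not pass. Without array 1 both passed (adjusted p = 0.0319 for Ldhc and 0.0324 for Ldhd), and Ldhc also with scaled arrays (0.0410). Several of these genes have close copies or pseudogenes, and cross-hybridization was not tested.

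**Figure D2:**
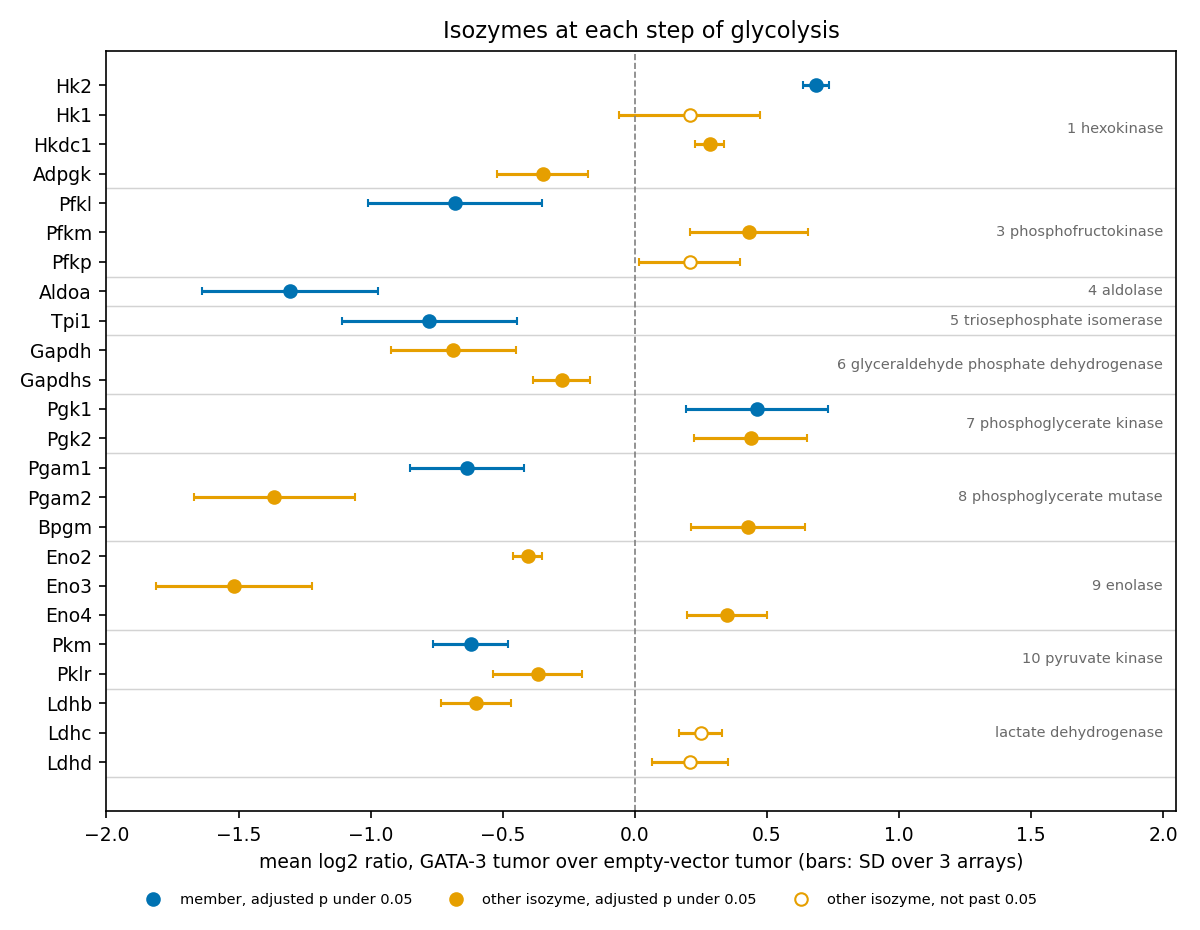
Mean log2 ratio of the GATA-3 tumor over the empty-vector tumor (horizontal axis) for each measured isozyme, grouped by step of the pathway, with bars for the SD over 3 arrays; blue marks the members, orange the other isozymes, and open points those that did not pass an adjusted p of 0.05. Aldoa, Pgam2 and Eno3 lie below -1. The hexokinase, phosphofructokinase, phosphoglycerate mutase, enolase and lactate dehydrogenase steps hold isozymes on both sides of 0.

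Transport of glucose and lactate frames the pathway. Of 14 measured transport genes 71.4% passed the threshold, beside 55.8% of all rows. Of these genes 4 were higher and 6 were lower, and the list median was -0.23. Those with the smallest p were Slc16a8, a lactate carrier known from the retinal pigment epithelium, at -0.92 ± 0.20, the intracellular glucose transporter gene Slc2a8 at -0.96 ± 0.23, and 2 more of the glucose transporter family, Slc2a9 at 0.62 ± 0.13 and Slc2a2 at 0.45 ± 0.07 (all SD, n = 3). Slc2a2 lost the call without array 3 (adjusted p = 0.0651). Slc2a1, the main glucose transporter of tumors, was named after its values were seen. It gave 0.05 on array 1, -1.34 on array 2 and -1.09 on array 3, and did not pass (-0.79 ± 0.74, adjusted p = 0.0590). Array 1 stood apart from the other two by more than 1 on the log2 scale. The lactate carrier gene Slc16a1, also named afterwards, gave -0.06 ± 0.14 (adjusted p = 0.579).

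Of 7 measured regulators of glycolytic flux, 2 were higher and 1 was lower (42.9% called, beside 55.8% of all rows). Hif1a, the oxygen-regulated subunit of HIF-1, was at 0.59 ± 0.13 (1.51-fold, adjusted p = 0.00535), and Tigar, a phosphatase that lowers fructose 2,6-bisphosphate, at 0.75 ± 0.26. Pfkfb3, which makes that activator of phosphofructokinase, was at -0.28 ± 0.08 (adjusted p = 0.0390) and lost the call with any single array left out (0.0593 to 0.173). Among 17 hypoxia response genes outside glycolysis, 5 were higher, 3 were lower and 9 did not pass (47.1% called), with a median of 0.11. Egln3, a prolyl hydroxylase that marks HIF for decay, was at 0.71 ± 0.06, the collagen prolyl hydroxylase gene P4ha1 at 0.53 ± 0.09, Epas1, which encodes HIF-2 alpha, at 0.47 ± 0.09, and the mTOR inhibitor gene Ddit4 at -0.996 ± 0.23 (all SD, n = 3). Epas1 lost the call without array 3 (adjusted p = 0.0639).

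The pathways that branch off glycolysis were read in the same fit, in which 55.8% of all rows passed the threshold. The shares were 87.5% of the measured pentose phosphate genes, 75% of those for pyruvate entry and 55.6% of those for gluconeogenesis. In the pentose phosphate pathway, which draws glucose 6-phosphate off toward NADPH and ribose, 2 of 8 measured genes were higher and 5 were lower, with a median of -0.51. Transaldolase (Taldo1) was at -1.13 ± 0.31, 2.19-fold lower, transketolase (Tkt) at -0.74 ± 0.12 and ribose 5-phosphate isomerase (Rpia) at -0.76 ± 0.08, while ribulose phosphate epimerase (Rpe) was at 0.92 ± 0.17. Of 12 measured genes for pyruvate entry into mitochondria, 7 were higher and 2 were lower, with a median of 0.44. The pyruvate dehydrogenase subunit genes Pdhb (1.03 ± 0.20) and Dld (1.05 ± 0.29) and the pyruvate carrier gene Mpc1 (0.84 ± 0.13) were higher, and Dlat, the acetyltransferase of the same complex, was at -0.53 ± 0.20 (all SD, n = 3). Of 9 gluconeogenesis genes 3 were higher and 2 were lower, with a median of -0.07. The cytosolic and mitochondrial carboxykinases Pck1 (0.61 ± 0.12) and Pck2 (0.68 ± 0.40) were higher, and fructose bisphosphatase (Fbp1, -0.63 ± 0.04) and glucose 6-phosphatase (G6pc, -0.65 ± 0.12) were lower. Dlat lost the call without array 3 (adjusted p = 0.0804), and Pck2 without array 2 (0.0657) and without array 3 (0.110).

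**Figure D3:**
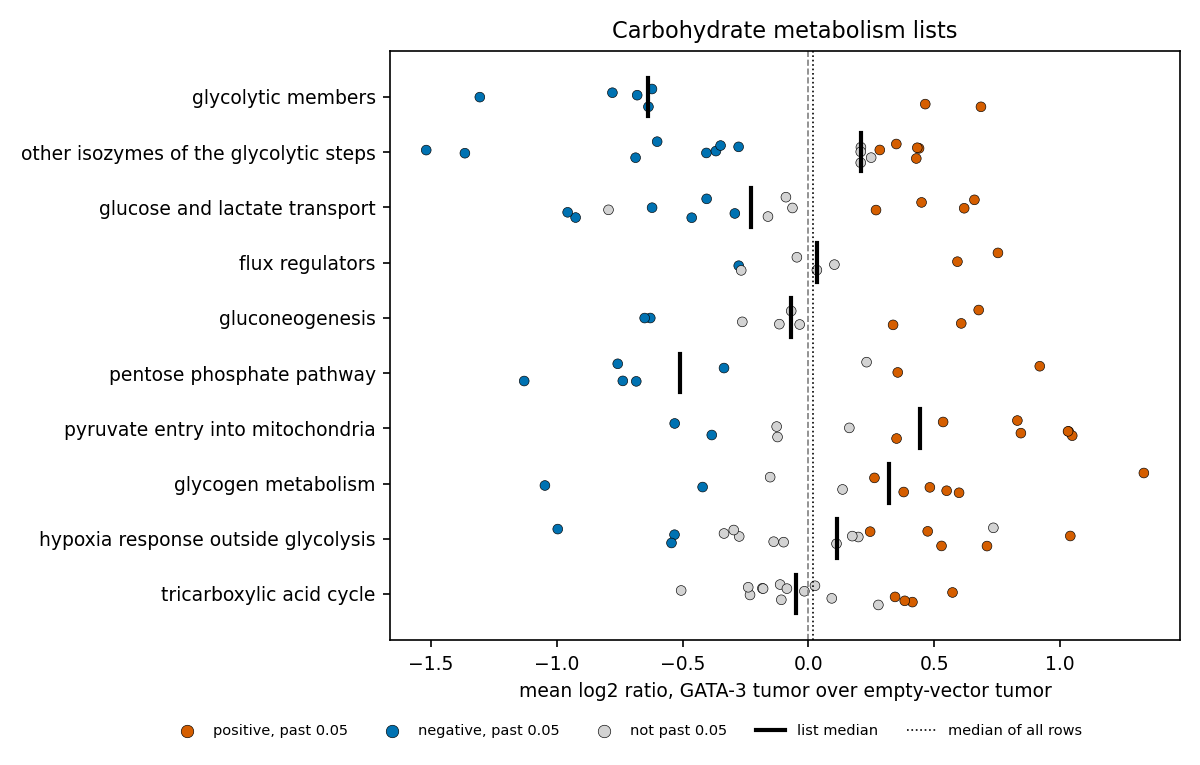
Mean log2 ratio of the GATA-3 tumor over the empty-vector tumor (horizontal axis) for every measured gene of 10 lists of carbohydrate metabolism, 1 list per line, colored by call, with a bar at each list's median and a dotted line at the median of all rows. The glycolytic members have a median of -0.64, the pentose phosphate genes -0.51 and the genes of pyruvate entry 0.44.

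**Figure D4:**
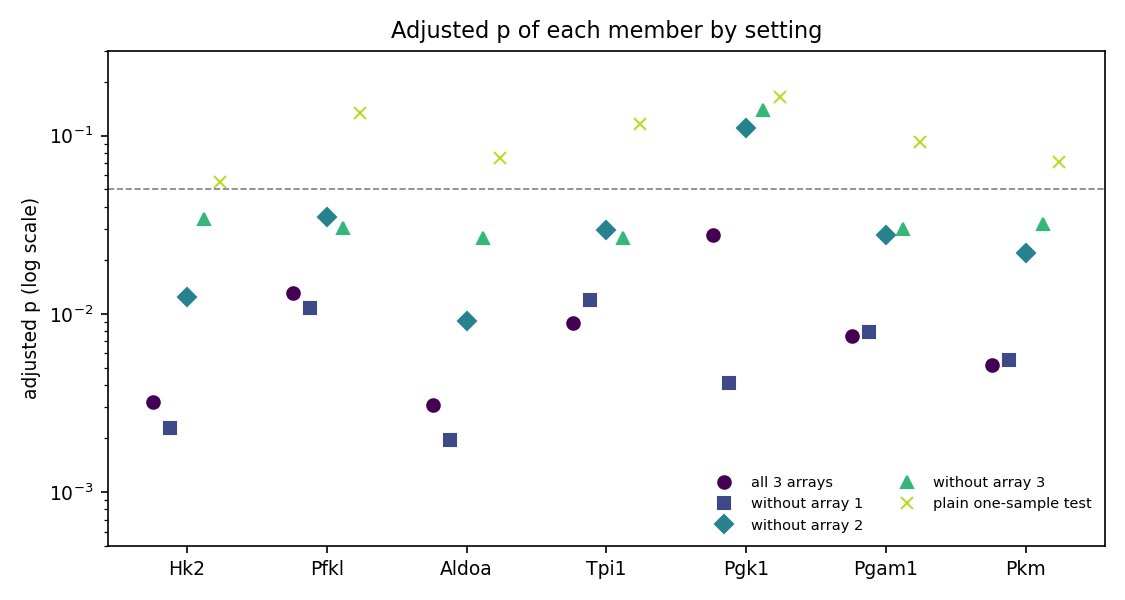
Adjusted p (vertical axis, log scale) of each measured member with all 3 arrays, with each array left out in turn, and with a plain one-sample test; the dashed line is at 0.05. Pgk1 lies above the line without array 2 and without array 3, and all 7 members lie above it in the plain test.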

How the data were processed

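Relative RNA abundance was measured on 3 two-channel arrays, forming 1 group. The deposited file holds a log ratio per probe and array, read here as log2. Its base, direction, background correction and normalization were not given in the sources used. The authors' deposited columns had medians of -0.02, -0.07 and -0.07. Precision is limited by having 3 arrays. Of the probe rows, 22973 had 1 gene symbol, 0 had several, and the others were unnamed here.

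Each array was centred on its median, and probes of a symbol were averaged (unnamed probes stayed single). The test of the mean against 0 used limma 3.58.1 under R 4.3.3 (intercept-only lmFit with eBayes) and Benjamini-Hochberg adjustment over all 31059 rows; each probe was also fitted as its own row (38975 rows with a value on all 3 arrays). Named were all members, all measured isozymes, and up to 4 genes of smallest p per other list; for some lists fewer are given. The members and the 18 lists were chosen with earlier results of these data known. Alternatives covered centring, scaling, missing values, moderation, a plain one-sample test, thresholds, sign, probe summary and each array left out.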

Additional observations from a re-analysis of the deposited data

How the results depend on the processing

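The 7 calls among the members, the 9 among their probes and the 67 among the 110 measured genes of the other pathway lists went to 0, 0 and 0 with the plain one-sample test (4, 4 and 53 at an unadjusted p under 0.05; limma gave the counts above), and to 1 (Aldoa), 1 and 9 with a mean of at least 1 in size as well. Of all rows 0.0129% passed in the plain test and 7.37% with the size threshold. Leaving out 1 array at a time gave 6 to 7 members, 7 to 10 probes and 31 to 70 list genes. Of all rows 63.6%, 36.7% and 27.4% passed without arrays 1, 2 and 3, and of all probe rows 64.8%, 39% and 30.2%. The counts of members and probes stayed at 7 and 9 with the values as deposited, scaled arrays, the missing-value filter, robust eBayes, an adjusted p under 0.10 and the turned sign. Those of list genes then ran from 66 to 77, and the share of all rows from 55.3% to 65.8%. The turned sign leaves each p as it was, and a looser threshold cannot lose a call, so neither could lower these counts. The missing-value filter left the same 31059 rows in the gene fit. The split of list genes was 38 higher and 29 lower, and turned to 33 and 36 with the values as deposited. The member median of -0.64 turned to 0.64 with the sign turned, by construction, and otherwise ran from -0.75 to -0.54. The signs of both probes of a member matched in 3 of 3 in each setting run. The plain test and the size threshold aside, 6 of the 7 members kept the call, Pgk1 being the exception. Of 76 other named genes past the threshold, 29 lost it in at least 1 of these settings, all 29 without array 3 and 17 of them without array 2. The share of all rows past it fell in these fits too, from 55.8% to 27.4% and 36.7%. The numbers of the arrays pair nothing. No paired analysis was possible because the arrays form 1 group, each value being a ratio of the 2 channels of an array. Brightness over background is unknown, so what signal strength limits could not be measured.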

Other observations

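Genes on either side of glycolysis were measured too. In glycogen metabolism 6 of 10 measured genes were higher and 2 were lower, with a median of 0.32. The share called was 80%, beside 55.8% of all rows (31.7% positive and 24.1% negative). The branching enzyme gene Gbe1, which adds side chains to glycogen, was at 1.33 ± 0.54 (SD, n = 3; 2.52-fold higher), with 0.77, 1.84 and 1.39 on arrays 1, 2 and 3. The phosphorylases that release glucose from glycogen went both ways: the liver form Pygl was lower at -1.05 ± 0.25 and the muscle form Pygm higher at 0.48 ± 0.11. The liver glycogen synthase gene Gys2 was higher at 0.60 ± 0.23. Pygm and Gys2 lost the call without array 3 (adjusted p = 0.0552 and 0.0555).

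The tricarboxylic acid cycle list had 25% of its measured genes called, beside 55.8% of all rows. Of 16 measured genes 4 were higher and 0 were lower, 12 did not pass, and the median was -0.05 (limma). The 4 were Dlst, a subunit of the oxoglutarate dehydrogenase complex, at 0.57 ± 0.03, the iron-sulfur subunit gene Sdhb at 0.41 ± 0.05, and the succinate-CoA ligase subunit genes Suclg1 (0.38 ± 0.13) and Suclg2 (0.34 ± 0.04; all SD, n = 3). Without array 3, Sdhb, Suclg1 and Suclg2 lost the call (adjusted p from 0.0822 to 0.136), and Suclg1 and Suclg2 also without array 2 (0.101 and 0.0795). At an unadjusted p under 0.05, 3 of the 16 were lower.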
